A study of Mus musculus with 6 samples.

Results

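A group of genes termed membrane-type epithelial serine proteases was followed in the gingiva, the gum tissue around the teeth, of mice with and without plasminogen. The group holds 10 genes, Prss22, Prss27, Prss8, St14, Tmprss11a, Tmprss11d, Tmprss11e, Tmprss11f, Tmprss11g and Tmprss11bnl, of the 48709 genes in the count table. They were taken by name. Of these names, 9 matched a gene symbol directly, and Tmprss11bnl matched Tmprss11b, of which RefSeq lists it as a synonym. The list was chosen by protein class from results of the same Plg KO against Plg WT contrast, so the values of its members in that contrast are a description and support no claim about proteases as a class. RNA levels were measured here. They carry no information on where a protein sits or whether it is active. Whether the protein of each member is anchored in the membrane was not examined.

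The study measured bulk RNA from gingiva in 6 libraries, of which 3 carry the label Plg WT and the other 3 Plg KO, all from C57BL/6 mice aged 12 weeks. Plg encodes plasminogen, the precursor of plasmin, a protease that dissolves fibrin, and the series is about fibrin at mucosal barriers. The labels give the genotypes as Plg WT and Plg KO only, and name no other allele, agent or treatment. They do not say that each library came from its own mouse, so a p-value reflects only how these libraries vary, and that variation may be partly technical. In bulk tissue, fewer cells of a type and less RNA per cell cannot be told apart.

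Trypsin-like serine proteases cut proteins after arginine or lysine and are made as inactive zymogens. Many epithelial members are held at the cell surface. Some span the membrane once near their amino end, as matriptase and the Tmprss11 proteins (the HAT/DESC branch) do, and prostasin is attached by a lipid anchor. In stratified epithelia such as skin and the lining of the mouth, matriptase and prostasin are known for barrier formation, for processing of profilaggrin and for activation of the epithelial sodium channel, and the Kunitz-type inhibitors encoded by Spint1 and Spint2 hold them in check.

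Total gene counts ran from 26183389 to 36429150 per library. The members were well covered, with 110 to 21288 counts per gene and library. Plg itself could not check the labels, since gingiva gave 2 counts in Plg WT 3, 2 in Plg KO 1 and 0 in the other 4 libraries. The Y-linked gene Ddx3y was high and Xist low in 1 library of each group, Plg WT 3 and Plg KO 1. Each group thus drew on more than 1 animal. The tissue label was met by keratins of stratified oral epithelium, with Krt4 at 15358 ± 2657 CPM (counts scaled by TMM-adjusted library size; SD, n = 3) in Plg WT against 16751 ± 4242 in Plg KO. Markers of neighbouring tissue differed between libraries. The summed salivary gland markers were at 6505 CPM in Plg WT 1, 1875 in Plg WT 2 and 1110 in Plg WT 3, whereas Plg KO libraries ranged from 5023 to 6909. The summed skeletal muscle markers were at 2264 CPM in Plg KO 1 and at 5260 to 10404 elsewhere.

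Differences between genotypes were tested with edgeR's quasi-likelihood test over the 17757 genes that passed its filter on low counts, with Benjamini-Hochberg adjustment over all of them. All 10 members passed that filter. Genes with an adjusted p under 0.05 are termed called, and each log2 change is Plg KO minus Plg WT. The median log2 change of all tested genes was -0.00.

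Tmprss11g and Prss22 rose in Plg KO, and the other 8 members did not pass the test. The log2 change was above 0 in 10 of 10 members, against 49.2% of all tested genes, and its median over the members was 0.51. The 2 called members compare with 0.191% of all tested genes called higher. All 3 Plg KO libraries lay above all 3 Plg WT libraries in 5 members, Prss22, Tmprss11g, Prss27, Tmprss11b and Tmprss11e, against 7.51% of all tested genes. Since the members were picked with this contrast known, nothing is read from these shares. DESeq2 called 4 members, adding Prss27 and Tmprss11b, against 1.54% of all tested genes.

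**Figure D1:**
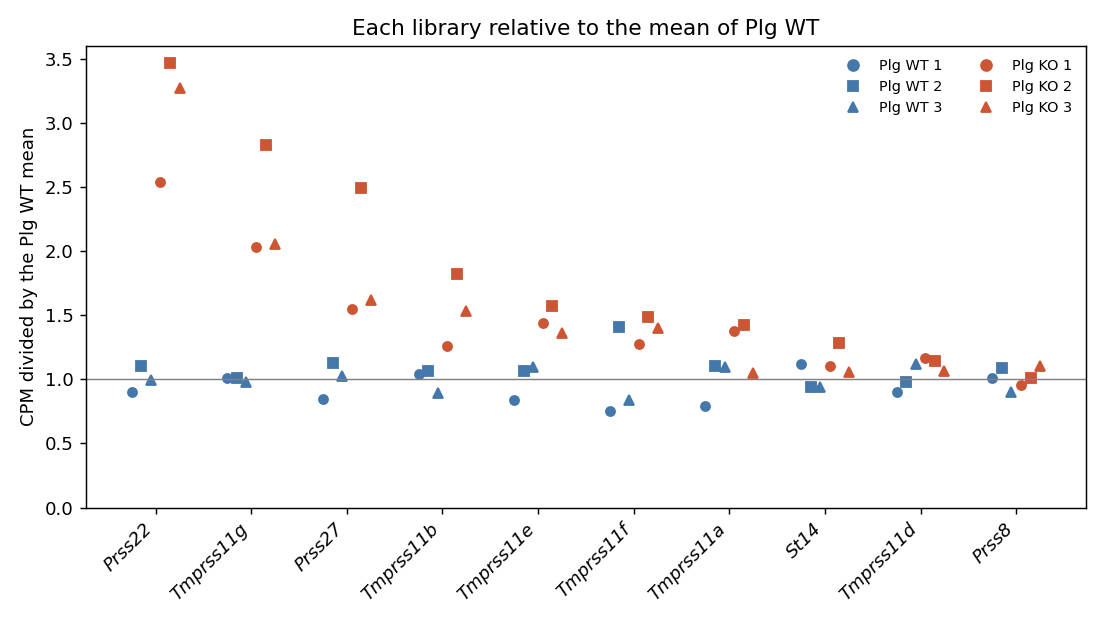
CPM of each member in each library divided by the member's mean over the 3 Plg WT libraries (vertical axis, no unit), with Plg WT in blue, Plg KO in red and the replicate number by symbol. The 3 Plg KO points of Prss22, Tmprss11g, Prss27, Tmprss11b and Tmprss11e lie above the 3 Plg WT points, and those of the other 5 members overlap them.

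The Tmprss11 genes lie side by side. The 6 of them here occupy chr5:86302217-86745815 on GRCm38, a span of 443.6 kb, all on the minus strand in the order Tmprss11d, Tmprss11a, Tmprss11g, Tmprss11f, Tmprss11b and Tmprss11e with rising coordinate. RefSeq promoter windows (GRCm38.p6) were found for 6 of the 10 members, Prss27 and the Tmprss11 genes other than Tmprss11e. Shown are the 250 bases before the start of Tmprss11g, the only gene of the cluster that edgeR called. The same stretch of its neighbour Tmprss11f, which was not called, is shown to compare a pair of adjacent genes. Both had log2 changes above 0. Also shown are 30 bases around the match in Tmprss11a and in Tmprss11b. All are written 5′ to 3′ on the minus strand, from chr5:86518601-86518850, chr5:86632425-86632674, chr5:86469146-86469175 and chr5:86676420-86676449 in the order printed. Capitals mark matches to AACNNGTT, the grainyhead-type motif, in Tmprss11g, Tmprss11a and Tmprss11b, and to TGANTCA, the AP-1 motif, in Tmprss11f.
Tmprss11g: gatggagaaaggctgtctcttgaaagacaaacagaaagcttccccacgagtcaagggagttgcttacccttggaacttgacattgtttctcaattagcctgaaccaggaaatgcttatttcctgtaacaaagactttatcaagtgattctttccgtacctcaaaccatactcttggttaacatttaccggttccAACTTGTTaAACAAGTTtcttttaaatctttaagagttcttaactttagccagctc
Tmprss11f: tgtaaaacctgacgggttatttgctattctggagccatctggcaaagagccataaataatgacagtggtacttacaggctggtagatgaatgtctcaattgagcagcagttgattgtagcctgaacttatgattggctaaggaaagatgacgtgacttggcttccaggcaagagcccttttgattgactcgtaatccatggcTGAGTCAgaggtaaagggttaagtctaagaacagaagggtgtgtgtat
Tmprss11a: caaacttgtcaAACTTGTTtcatttcaact
Tmprss11b: cacacctgttaAACAAGTTttttttttttt

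The Tmprss11g window holds 2 matches to AACNNGTT, with their first bases 56 and 47 bases before the start, and a single base lies between them. Grainyhead-like factors, Grhl1 and Grhl3 among them, are known regulators of epithelial barrier genes. Searched on both strands, 3.64% of the 32851 RefSeq promoter windows of this length hold at least 1 such match, and 0.0791% (26 windows) hold 2 or more. Tmprss11a and Tmprss11b hold 1 match each, and Prss27, Tmprss11d and Tmprss11f hold none. TGANTCA stands in 6.75% of all windows and in 2 of the 6 read here, Tmprss11d and Tmprss11f. CACCC, letters bound by Krueppel-like factors, stands in 52.0% of all windows and in Tmprss11f alone among the 6, and TATAAA in 12.4% of all windows and in none of the 6. The motifs were picked after these windows had been read, and a match is a description of letters, not a bound site. AACNNGTT and TGANTCA read the same on both strands, so a place that matches on both was counted as 1 match. RNA of Grhl1 was at 88.7 ± 11.6 CPM in Plg WT against 88.9 ± 11.2 in Plg KO, and RNA of Grhl3 at 91.1 ± 15.0 and 91.9 ± 14.3.

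Levels of different genes were compared per length, as CPM per kb of the union of annotated exons. The proteases covered a wide range in Plg WT. Tmprss11d, which encodes the mouse counterpart of human airway trypsin-like protease (HAT), stood highest at 176 ± 19.7 CPM per kb (SD, n = 3), and Tmprss11a, also of the HAT/DESC branch, followed at 51.2 ± 9.19. Prss8, which encodes prostasin, was at 26.5 ± 2.5 and Prss27, which encodes marapsin, a protease known from squamous epithelium, at 22.4 ± 3.15, with overlapping libraries. Tmprss11g came next at 11.8 ± 0.227. Tmprss11b was at 8.88 ± 0.802 and St14, which encodes matriptase, at 8.15 ± 0.832, again overlapping. Prss22, which encodes tryptase epsilon, was at 4.09 ± 0.407. Tmprss11e, the gene of DESC1, was at 1.08 ± 0.153 and Tmprss11f at 0.716 ± 0.254, with overlapping libraries. Every other neighbouring pair in this order had libraries that did not overlap.

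In Plg KO the order of levels per kb was altered in the middle only. Tmprss11d was at 198 ± 9.16 CPM per kb and Tmprss11a at 65.8 ± 10.4, whose libraries overlapped those of Prss27 at 42.2 ± 11.8. Tmprss11g at 27.2 ± 5.34 overlapped Prss8 at 27.2 ± 1.91. Tmprss11b at 13.7 ± 2.49 overlapped Prss22 at 12.6 ± 1.99, and Prss22 overlapped St14 at 9.37 ± 0.989. Tmprss11e at 1.57 ± 0.114 lay above Tmprss11f at 0.996 ± 0.0759. Exon length sets these values: with the longest transcript in place of the exon union, Tmprss11a in Plg WT was at 95.7 CPM per kb and Tmprss11g at 20.6, where it overlapped Prss27, and St14 at 17.5 lay above Tmprss11b.

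**Figure D2:**
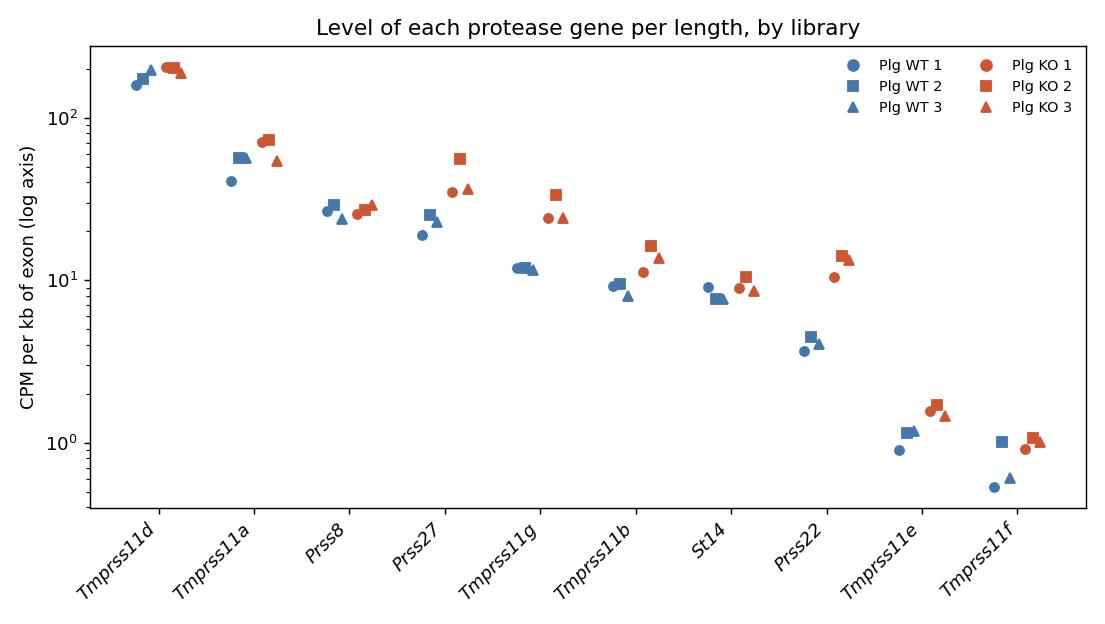
Level of each member in each library as CPM per kb of exon union (vertical log axis), ordered by the mean of Plg WT, with Plg WT in blue and Plg KO in red. Tmprss11d lies at the top in all 6 libraries, and Prss22 and Tmprss11g show the widest gaps between the groups.

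Prss22 had the largest change of the 10. Its CPM in replicates 1, 2 and 3 were 4.89, 5.96 and 5.38 for Plg WT, while those for Plg KO were 13.8, 18.8 and 17.7, and values of other genes follow in the same order. The lowest Plg KO library thus lay well above the highest Plg WT library. The log2 change was 1.63 ± 0.16 (SE), a 3.09-fold rise, with an adjusted p of 0.0198 by edgeR's quasi-likelihood test. Prss22 lies on chr17:23993534-23998100, minus strand.

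Tmprss11g was even among the Plg WT libraries, at 59.9, 59.9 and 57.9 CPM. In Plg KO it stood at 121, 167 and 122 CPM, so that the groups did not overlap and Plg KO 2 was highest. The log2 change was 1.20 ± 0.14 (SE), a 2.31-fold rise, with an adjusted p of 0.0266 by edgeR's quasi-likelihood test. Tmprss11g lies on chr5:86485876-86518600, directly beside Tmprss11f.

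Neither call held in every fit that left out 1 library. By edgeR's quasi-likelihood test, the adjusted p of Prss22 was 0.103 without Plg WT 2, 0.0866 without Plg WT 3, 0.117 without Plg KO 2 and 0.0776 without Plg KO 3. That of Tmprss11g was 0.176, 0.122, 0.0744 and 0.0697 in the same order. In these fits only 2 or 3 of all tested genes were called, and the adjustment depends on all of them. Without Plg KO 2 the unadjusted p of Tmprss11g by the same test was 2.42e-05, against 4.35e-05 with all 6 libraries. It rose for Tmprss11g in the other fits that lost the call, and for Prss22 in all of them. Prss22 and Tmprss11g both stayed called without Plg WT 1 and without Plg KO 1. The size of the change moved little, from 1.54 to 1.75 on the log2 scale for Prss22 and from 1.03 to 1.28 for Tmprss11g over the 6 fits that leave out 1 library each.

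Prss27 followed in size. Its CPM were 23.7, 31.5 and 28.8 in Plg WT against 43.5, 69.9 and 45.3 in Plg KO. The groups did not overlap, with Plg KO 2 apart from the other 2 Plg KO libraries. The log2 change was 0.92 ± 0.20, with an adjusted p of 0.186 by edgeR's quasi-likelihood test and 0.00584 by DESeq2. Prss27 lies on chr17:24038144-24045954, plus strand.

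Tmprss11b and Tmprss11e also had groups that did not overlap. Tmprss11b was at 38.5, 39.4 and 33.2 CPM in Plg WT against 46.8, 67.6 and 56.8 in Plg KO, a log2 change of 0.62 ± 0.15 with an adjusted p of 0.204 by edgeR's quasi-likelihood test and 0.0306 by DESeq2. Tmprss11e, among the lowest members, was at 3.08, 3.93 and 4.04 CPM in Plg WT against 5.32, 5.79 and 5.01 in Plg KO, a log2 change of 0.55 ± 0.18 with an edgeR adjusted p of 0.376. An antisense gene, Gm16579, and a non-coding gene, Gm43055, overlap Tmprss11e and had at most 1 count in any library. The libraries did not keep strand.

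In the other 5 members the groups overlapped. Tmprss11f was at 3.66, 6.85 and 4.10 CPM in Plg WT against 6.24, 7.26 and 6.83 in Plg KO, with Plg WT 2 inside the Plg KO range. Tmprss11a was at 232, 324 and 322 CPM in Plg WT against 403, 418 and 308 in Plg KO, with Plg KO 3 inside the Plg WT range. Their log2 changes were 0.48 ± 0.25 and 0.36 ± 0.17. Leaving out Plg WT 2 took Tmprss11f to 0.80, and leaving out Plg WT 1 took Tmprss11f to 0.31 and Tmprss11a to 0.22.

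The abundant Tmprss11d and the pair St14 and Prss8 differed least. Tmprss11d was at 443, 483 and 552 CPM in Plg WT against 575, 564 and 526 in Plg KO, a log2 change of 0.17 ± 0.11 that became 0.10 on leaving out Plg WT 1 and 0.26 on leaving out Plg WT 3. St14 was at 69.5, 58.7 and 58.4 CPM in Plg WT against 68.9, 80.1 and 65.7 in Plg KO, a log2 change of 0.20 ± 0.11 that was 0.11 without Plg KO 2. Prss8 was at 49.5, 53.5 and 44.3 CPM in Plg WT against 47.1, 49.8 and 54.1 in Plg KO, a log2 change of 0.04 ± 0.10 that turned to -0.032 without Plg WT 3 and to -0.020 without Plg KO 3. The adjusted p of the 5 members with overlapping groups ran from 0.592 to 0.956 by edgeR's quasi-likelihood test. Prss8 lies on chr7:127925716-127930104 and overlaps the end of Kat8, and St14 lies on chr9:31089402-31131853.

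Ratios within a library do not depend on how libraries are scaled. Counts of Tmprss11g over counts of Tmprss11d, a gene of the same cluster, were 0.135, 0.124 and 0.105 in Plg WT against 0.210, 0.297 and 0.232 in Plg KO. Prss22 over Prss8 was 0.0987, 0.111 and 0.122 in Plg WT against 0.292, 0.377 and 0.327 in Plg KO. Prss27 over Prss8 was 0.480, 0.589 and 0.650 in Plg WT against 0.923, 1.40 and 0.838 in Plg KO. These ratios set the members with the largest changes over members with small ones, with the values known, so their separation is a description. Tmprss11b over Tmprss11d, in contrast, overlapped, at 0.0870, 0.0816 and 0.0602 in Plg WT against 0.0815, 0.120 and 0.108 in Plg KO. Summed over the 10 members, the level was 1035 ± 95.2 CPM in Plg WT against 1328 ± 120 in Plg KO. Tmprss11d supplied 47.6% ± 2.23 of that sum in Plg WT against 41.9% ± 2.58 in Plg KO.

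Within the Tmprss11 span lie 3 further annotated genes, all non-coding, and none had enough counts to be tested. Just below the span lies Tmprss11c, at chr5:86231481-86289308, which is not a member. It had 12 counts over all libraries and was not tested. Of the 3 nearest tested genes on either side, Cenpc1, Stap1 and Uba6 below and Ythdc1, Gm5869 and Sult1b1 above, edgeR, DESeq2 and limma called 0 of 6, and 1, Ythdc1, had an unadjusted p under 0.05. Ythdc1, which encodes a reader of methylated RNA, had a log2 change of -0.27 ± 0.11. Along the span, the log2 change was 0.17 for Tmprss11d, 0.36 for Tmprss11a, 1.20 for Tmprss11g, 0.48 for Tmprss11f, 0.62 for Tmprss11b and 0.55 for Tmprss11e. By edgeR the cluster held a single called gene, Tmprss11g, and DESeq2 also called Tmprss11b. Reads of 37 bases, the read length here, could mix little between the members: no 37-base stretch of any Tmprss11 transcript stands in another member, and at most 4.56% of a member's stretches stand in any other gene, in Prss8, which shares 86 with Kat8.

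**Figure D3:**
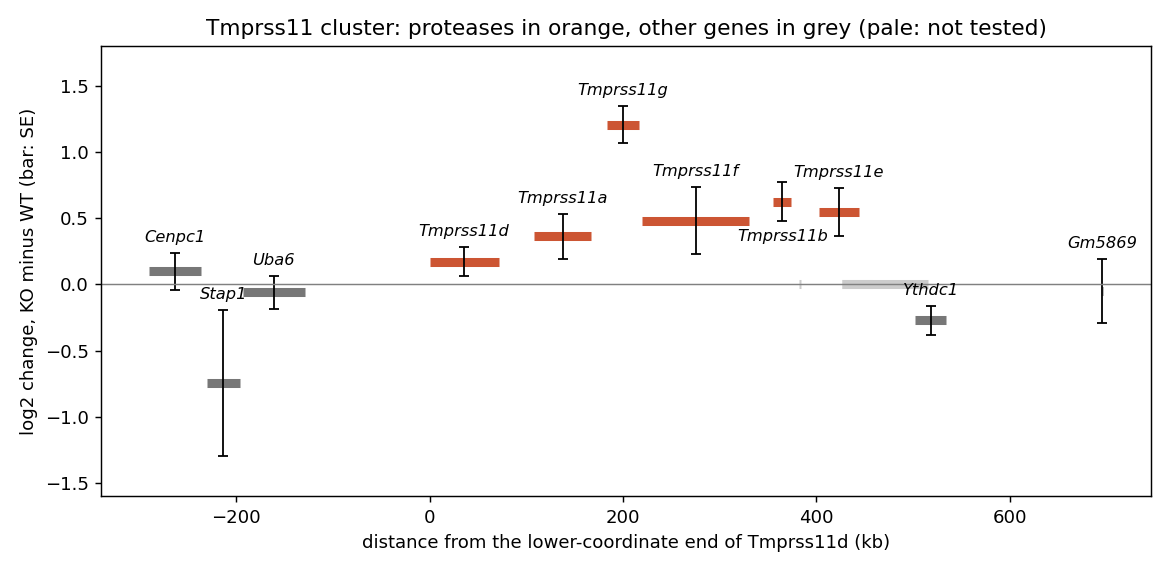
Log2 change (Plg KO minus Plg WT, bar SE) of the genes in and around the Tmprss11 cluster against distance in kb from the lower-coordinate end of Tmprss11d, with each box as long as its gene. Tmprss11g at 1.20 stands above its neighbours, the flanking genes lie at or below 0.10, pale boxes are untested genes, and Sult1b1 lies beyond the right edge.

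Prss22 and Prss27 are also near neighbours, within chr17:23993534-24045954, a span of 52.4 kb. Plg lies on the same chromosome, 11.6 Mb away, so sequence carried along with the Plg allele and the loss of Plg cannot be told apart for this pair. The flanking genes were looked at after the values had been seen. Of Sbp, Sbpl, Prss30, Kctd5, Pdpk1 and Amdhd2, edgeR called 0 of 6, and 1, Prss30, had an unadjusted p under 0.05. Prss30, a further trypsin-like serine protease gene, had 5, 7 and 1 counts in Plg WT against 40, 26 and 26 in Plg KO, a log2 change of 2.74 ± 0.57 with an adjusted p of 0.162 by edgeR's quasi-likelihood test. DESeq2 called Prss30 alone of the 6, and limma none. Sbp and Sbpl, on the same side as Prss30, had log2 changes of 1.44 ± 0.67 and 1.05 ± 0.64, with overlapping groups. On the other side Pdpk1 and Amdhd2 had log2 changes of 0.09 ± 0.14 and -0.24 ± 0.17. Kctd5, next to Prss27, was at 87.4 ± 5.46 CPM in Plg WT against 88.5 ± 3.20 in Plg KO.

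In a list of 16 membrane-anchored serine proteases outside the members, which does not hold Prss30, no change was called. Of these, 7 passed the filter, with a median log2 change of 0.02. By edgeR 0 were called and 0 had an unadjusted p under 0.05, and DESeq2 and limma called 0. Tmprss13, known for skin barrier formation, exceeded every member in level, at 1133 ± 210 CPM per kb in Plg WT against 1068 ± 26.6 in Plg KO. Its CPM were 2910, 3920 and 4204 in Plg WT against 3380, 3553 and 3462 in Plg KO, a log2 change of -0.09 ± 0.16. Tmprss4 was at 18.6 ± 2.21 CPM in Plg WT against 22.6 ± 5.92 in Plg KO. Prss41 had a log2 change of -0.68 ± 0.43 and Hpn, which encodes hepsin, of 0.55 ± 0.37. Prss21 and Tmprss15 had 0 counts in every library.

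Of the 5 inhibitor genes reported here 4 were tested and none was called. The tested genes were Spint1, Spint2, Serpine2 and Serpinc1, with a median log2 change of 0.20. All 4 had a log2 change above 0, against 49.2% of all tested genes. By edgeR 0 were called and 1, Serpine2, had an unadjusted p under 0.05, and DESeq2 and limma called 0. Spint1, which encodes HAI-1, the cognate inhibitor of matriptase, was at 53.6 ± 4.97 CPM in Plg WT against 59.1 ± 10.9 in Plg KO. Spint2, which encodes HAI-2, was at 124 ± 18.0 and 148 ± 10.7, a log2 change of 0.26 ± 0.12. Serpine2, which encodes protease nexin-1, an inhibitor of prostasin and of thrombin, was at 58.4, 62.4 and 70.3 CPM in Plg WT against 76.0, 72.8 and 78.5 in Plg KO, a log2 change of 0.25 ± 0.10. Serpina5 had 0 counts.

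Known substrates and effectors, of which 11 of 12 were tested, had a median log2 change of 0.03. By edgeR 0 were called and 1, Plau, had an unadjusted p under 0.05, and DESeq2 and limma called 0. Plau, which encodes urokinase, the activator of plasminogen and itself activated by matriptase, was at 13.7, 14.5 and 17 CPM in Plg WT against 29.99, 24.5 and 16.1 in Plg KO, a log2 change of 0.64 ± 0.22 with overlapping groups. The sodium channel subunit genes Scnn1a, Scnn1b and Scnn1g had log2 changes of -0.05 ± 0.19, -0.45 ± 0.20 and -0.30 ± 0.20. Flg, which encodes profilaggrin, had a log2 change of -0.60 ± 0.28. F2rl1, which encodes the protease-activated receptor PAR2, was at 2.12 ± 0.601 CPM in Plg WT against 2.71 ± 0.300 in Plg KO.

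**Figure D4:**
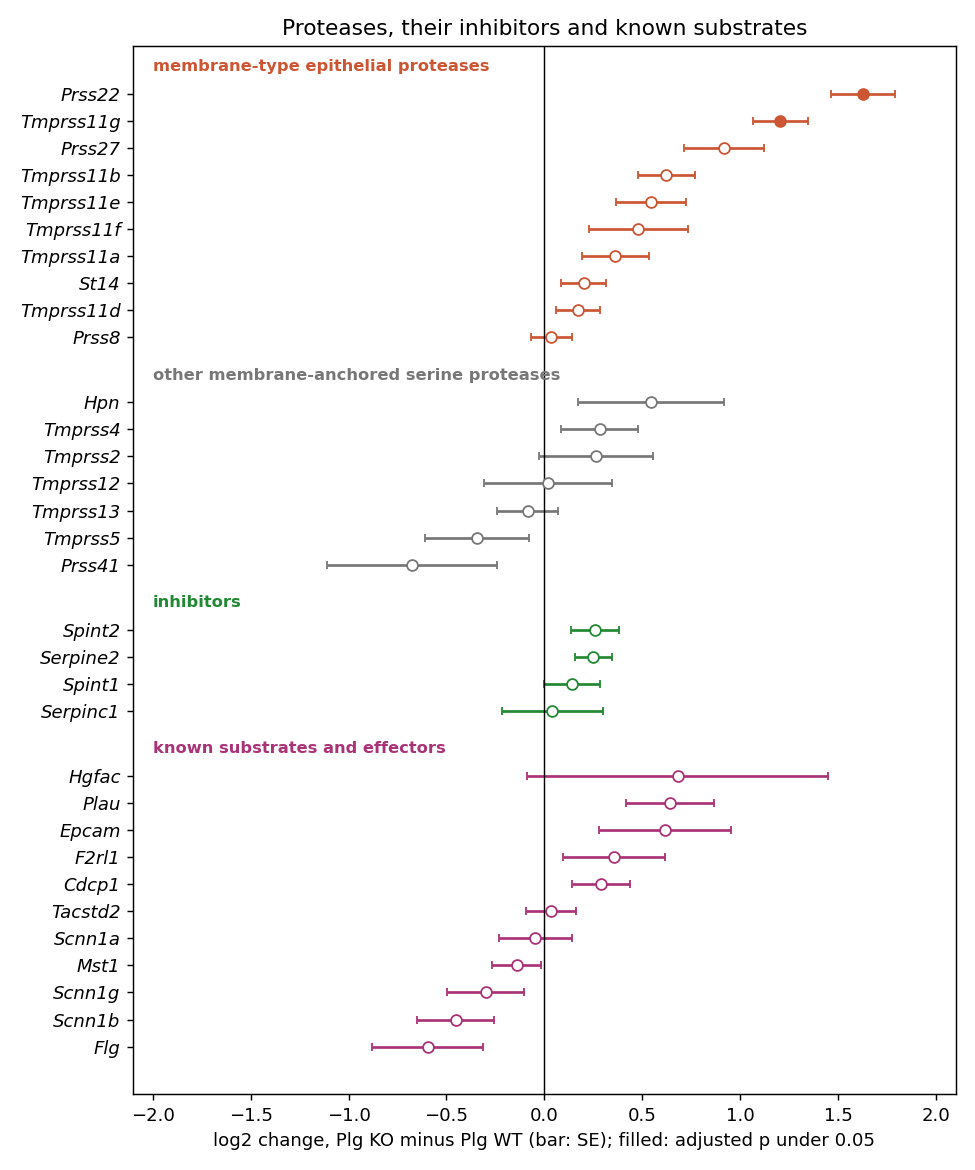
Log2 change (horizontal axis, Plg KO minus Plg WT, bar SE) of the 10 members, the tested membrane-anchored proteases outside the members, inhibitors and known substrates, with filled points for an adjusted p under 0.05. Prss22 at 1.63 and Tmprss11g at 1.20 are the filled points. The proteases outside the members and the substrates spread on both sides of 0, and the 4 tested inhibitors lie above 0.

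The makeup of the epithelium was read beside the members. Genes of differentiated stratified epithelium had a median log2 change of -0.07 over 18 tested genes, 0 of them called by edgeR, DESeq2 or limma and 1, Lor, with an unadjusted p under 0.05. Lor, which encodes loricrin, was at 410 ± 9.63 CPM in Plg WT against 322 ± 22.7 in Plg KO, and the next by p were Krt76 and Sbsn, with log2 changes of -0.41 ± 0.23 and -0.25 ± 0.17. Basal genes had a median of -0.11 over 8, with 0 called by edgeR, 3 at an unadjusted p under 0.05 and 1, Dst, called lower by DESeq2. Dst and Col17a1, both of the hemidesmosome that ties basal cells down, had log2 changes of -0.63 ± 0.15 and -0.43 ± 0.11, and their partner Itgb4 of 0.35 ± 0.12. Pan-epithelial genes had a median of 0.17 over 12, with 0 called by any of the 3 tools and 1, Cldn4, at an unadjusted p under 0.05. Cldn4, a claudin of tight junctions, had a log2 change of 0.29 ± 0.12, Dsp of -0.33 ± 0.17 and Cdh1 of 0.18 ± 0.10. Relative to the differentiated list, 10 of 10 members had a log2 change above 0, against 71.7% of all tested genes, and in 7 every Plg KO library lay above every Plg WT library, against 8.25% of all. Relative to the pan-epithelial list, 7 of 10 were above 0, against 11.0% of all tested genes, and 3 had Plg KO above throughout, against 1.21% of all, namely Prss22 at 1.22, Tmprss11g at 0.86 and Prss27 at 0.56. As above, nothing is read from these shares. In that list, genes also made by glands were low in Plg WT 2 and 3, such as Krt18 at 130 and 74.6 CPM, while Plg WT 1 had 455 and the Plg KO libraries 298 to 413. Their part in the result was not tested.

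Markers of other cells were read too, and edgeR called none of them but Clec4e. Odam, made by junctional epithelium at the tooth surface, was at 796, 656 and 626 CPM in Plg WT against 1005, 1100 and 1009 in Plg KO, a log2 change of 0.58 ± 0.12 with an adjusted p of 0.166 by edgeR's quasi-likelihood test; DESeq2 called it. The other junctional marker, Amtn, was at most at 0.420 CPM. All 7 tested neutrophil markers, of 8 listed, were higher in every Plg KO library, with 1, Clec4e, called by edgeR and a sum of 29.0 to 68.2 CPM in Plg WT against 141 to 498 in Plg KO. DESeq2 called 6 of the 7 higher and limma 1. Ly6g, a defining neutrophil marker too low to be tested, had 0, 1 and 0 counts in the Plg WT libraries while Plg KO had 0, 46 and 17. The neutrophil sum was highest in Plg KO 2, the library that was also the highest of Plg KO in 8 of the 10 members. The share of all tested genes that were highest in that library was not computed, so nothing is read from this count. Of the 498 CPM in Plg KO 2, S100a8 gave 229 and S100a9 gave 237. Plg KO 1 had a higher sum than Plg KO 3, whereas its Ly6g counts were lower. Markers of mast cells, cells whose granules hold other tryptases, summed to 30.4 to 39.8 CPM in Plg WT against 22.7 to 25.6 in Plg KO, with 5 of 6 tested genes lower in every Plg KO library, 0 called by edgeR or limma, 5 at an unadjusted p under 0.05 and 1, Cma1, called lower by DESeq2. All 6 fibroblast markers had log2 changes below 0, with a median of -0.47, 0 called by edgeR, DESeq2 or limma and 3 at an unadjusted p under 0.05. The part of these cells, and of gland and muscle, in the members' values was not tested.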

How the data were processed

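RNA-seq of mouse gingiva in 6 libraries was used. Per the labels' protocols, Nextera XT libraries, which keep no strand, were read as 37 bp pairs on a NextSeq500. The submitters' processing notes name STAR 2.5.2a, DESeq2, edgeR and limma and the builds GRCm38.p3 and mm10. Their counting tool and annotation, not given in the sources used here, could shift values of overlapping genes.

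The authors deposited raw counts per gene (48709 genes, and 22 entries naming no gene, at most 3.55e-05% of a library, left out) and CPM values. Whole reads were recovered for 100% of the deposited CPM values (tolerance 0.01 of the value or 0.01 read, which high counts meet in any case), and after rounding these equalled the raw counts. No pair of libraries agreed within sampling noise (chi-square per degree of freedom 21.4 or more).

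Counts were fitted with edgeR 4.0.16 in R 4.3.3 (TMM, filterByExpr, quasi-likelihood F test, genotype only), with Benjamini-Hochberg adjustment over 17757 genes. The SE is the log2 change divided by the square root of F. CPM printed are TMM-scaled counts. Lengths and positions came from GENCODE M21 on GRCm38 and promoter windows from RefSeq. DESeq2 1.42.0 and limma 3.58.1 (voom, and trend on log2 of CPM plus 0.5), other scalings and filters, a replicate block, a sex term and each library left out were alternatives. The script was tested on simulated data.

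Members and lists were chosen with earlier results of these data known. Named genes were all members, Plg, the genes within the Tmprss11 span and the 3 nearest tested genes on either side, and from each pathway list the called genes and the 3 with the smallest p, with inhibitors and substrates named freely. Tmprss11c, Tmprss13, Grhl1, Grhl3, Prss30, Kctd5, Krt4, Krt18, Prss21, Tmprss15 and the other neighbours of Prss22 and Prss27, and marker genes given singly, were named after their values were seen. An inhibitor first listed is not reported here, and the counts of its list leave it out.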

Additional observations from a re-analysis of the deposited data

How the results depend on the processing

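The count of called genes was 42 (34 higher and 8 lower, 81.0% higher) and the count of called members 2. Over all genes 121 were called at an adjusted p under 0.10, 402 with DESeq2 (274 higher, 128 lower, 68.2% higher), 162 without a low-count filter and 65 with a sex term, and 2 to 219 with 1 library left out. The 219 came without Plg WT 1, and the 2 or 3 without Plg WT 2, Plg WT 3, Plg KO 2 or Plg KO 3. Over the members, 4 were called with DESeq2, 3 without a filter and 0 to 2 with 1 library left out, 0 without each of those 4 libraries. Prss27 passed with DESeq2 (0.91 on the log2 scale) and without a filter (0.91, adjusted p 0.0480), and Tmprss11b with DESeq2 (0.62). With 1 library left out, Prss27 ran from 0.67 to 1.04 and Tmprss11b from 0.48 to 0.74, both lowest without Plg KO 2. Tmprss11e ran from 0.43 to 0.62. No such fit called Prss27, Tmprss11b or Tmprss11e. Leaving out 1 library gave 0.31 to 0.80 for Tmprss11f, 0.22 to 0.49 for Tmprss11a, 0.10 to 0.26 for Tmprss11d, 0.11 to 0.29 for St14, 1.54 to 1.75 for Prss22 (adjusted p 0.0277 to 0.117), 1.03 to 1.28 for Tmprss11g (adjusted p 0.0358 to 0.176) and -0.032 to 0.10 for Prss8, which turned sign at -0.032 without Plg WT 3 and at -0.020 without Plg KO 3. Relative to the pan-epithelial list the log2 changes were 1.22 for Prss22, 0.86 for Tmprss11g, 0.56 for Prss27 and 0.29 for Tmprss11b. Those of the other members were 0.18 for Tmprss11e, 0.17 for Tmprss11f, 0.05 for Tmprss11a, -0.12 for St14, -0.14 for Tmprss11d and -0.28 for Prss8. Relative to the differentiated list, an alternative chosen after seeing the data, they were 0.49 for Tmprss11a and 0.30 for Tmprss11d. With the longest transcript as length, Plg WT levels were 95.7 CPM per kb for Tmprss11a, 20.6 for Tmprss11g, 17.5 for St14 and 1.35 for Tmprss11f. Prss22 and Tmprss11g each passed in 10 of 15 tested alternatives, leaving aside the looser threshold and the recovered reads, which could not lose a call. The cause of these shifts was not tested.

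Whether replicate numbers pair the libraries was not settled. The deviations of same-numbered libraries from their group means correlated at -0.26, -0.01 and -0.22, but 3 libraries per group are too few to exclude a pairing. With the number as a replicate block 2 genes and 0 members were called, Prss22 at 1.62 (adjusted p 0.119) and Tmprss11g at 1.19 (adjusted p 0.211), both by edgeR. Tmprss11e and Tmprss11f had the fewest counts, 110 to 244 per library, and whether depth limited them was not tested.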
